A study of Saccharomyces cerevisiae with 9 samples.

Results

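Messenger RNA of 10 genes of ergosterol synthesis was measured in budding yeast that cannot ubiquitylate histone H2B, that cannot remove this ubiquitin through Ubp8, or both. The genes are HMG1, ERG1, ERG2, ERG3, ERG5, ERG6, ERG8, ERG11, ERG13 and ERG25, matched by gene name or systematic name among the 6256 genes on the arrays. Each is read by 1 probe, spotted 1 or 2 times per array. They are part of the known pathway and were chosen by name, with earlier results of these data known.

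Ergosterol is the main sterol of fungal membranes, where it sets fluidity and the working of membrane proteins, much as cholesterol does in animals. Cells build it from acetyl-CoA through mevalonate and farnesyl pyrophosphate to squalene, which is oxidised with molecular oxygen and cyclised to lanosterol. Lanosterol is then demethylated, methylated on its side chain and desaturated to ergosterol, and several of these late steps use oxygen, heme or iron. The transcription factors Upc2 and Ecm22 activate many genes of the route when sterols are low, and Hap1 senses heme.

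The study compared strains on 9 Agilent 2-colour arrays, each with RNA of 1 strain in Cy5 and of another in Cy3. The reference strain was BY4742, labelled wild type. CY1272 carries Htb1_K123R, an H2B with arginine in place of the lysine to which ubiquitin is attached, and its other H2B gene is deleted (htb2_delta0). It is called K123R here. BY10809 lacks UBP8 (ubp8_delta0), which encodes the H2B ubiquitin protease of the SAGA coactivator complex. CY1383 carries Htb1_K123R, htb2_delta0 and ubp8_delta0 together and is called the double mutant. BY13026 carries htb2_delta0 alone, so that by the labels both strains of that comparison lack HTB2. Each of the 3 mutants was set against wild type on 2 arrays with the dyes swapped, and K123R was set against BY13026, called htb2_delta0 below, on 3. Those 3 arrays are of another Agilent platform than the 6 with wild type. The labels give 1 strain for each genotype, so effects of the genotype and of the strain cannot be told apart. Growth conditions are not given in the sources used here.

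Values are log2 ratios of the mutant over its reference, positive where the mutant held more RNA, and errors are standard errors of the fit. A gene is said to have risen or fallen where its adjusted p in limma was under 0.05. Of all spots on an array, 99.3% to 99.9% exceeded background clearly by the scanner software's test. All 162 spots of the 10 genes were well above background in both colours, with signals at least 25.6 times the local background, and none was saturated. On the log2 scale HTB2 fell by 3.78 ± 0.13 (SE, n = 2 arrays) in K123R and fell by 3.4 in the double mutant. In ubp8 it was at 0.43 (adjusted p = 0.136). Against htb2_delta0, where the labels give HTB2 as deleted in both strains, its probe read −0.97, −0.06 and −0.71 (fitted −0.45 ± 0.09, adjusted p = 0.0201), and that of HTB1, the other H2B gene, −1.13, −0.41 and −1.27 (fitted −0.80). UBP8 fell by 2.31 in ubp8 and fell by 2.36 in the double mutant, and was at −0.20 in K123R and −0.22 against htb2_delta0, which did not pass. HIS3, a marker gene, was at 3.17 in K123R, 2.86 in the double mutant and 3.63 in K123R against htb2_delta0. LEU2 was at 3.70 in K123R against wild type, but at −0.05 in the double mutant and −0.21 in K123R against htb2_delta0. In ubp8 HIS3 was at −0.22 and LEU2 at −0.02. Of 7 genes specific to MATa cells none passed in any of the 4 comparisons. Of 4 alpha-cell genes 2 fell in K123R, SAG1 (−0.76) and STE3 (−0.87), and 2 fell in the double mutant. All 4 fell against htb2_delta0 (median −0.75), and none passed in ubp8. Of all genes 10.1%, 10% and 16.3% fell in K123R, in the double mutant and against htb2_delta0. The part of these marker and mating-type genes in the results was not tested.

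ERG5 and ERG8 fell and ERG13 rose in each of the 3 comparisons that involve the K123R histone, and none of the 10 genes passed in ubp8. In K123R, RNA of ERG5 was at 0.715 times and that of ERG8 at 0.732 times the wild-type level, and ERG13 was at 1.19 times. The other 7 genes did not pass in K123R or in the double mutant. In K123R against wild type 1 of 10 genes rose and 2 fell, beside 11% of all genes that rose and 10.1% that fell. In the double mutant the counts were again 1 and 2, beside 9.88% and 10% of all genes. In ubp8 no gene of the 10 rose or fell, beside 1.84% of all genes that rose and 0.961% that fell. Against htb2_delta0 1 of 9 genes tested rose and 3 fell, beside 14.8% and 16.3% of all genes, and 1 of the 3 rests on a single array. The shares of the 10 genes are thus near those of all genes in the comparisons with wild type.

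**Figure D1:**
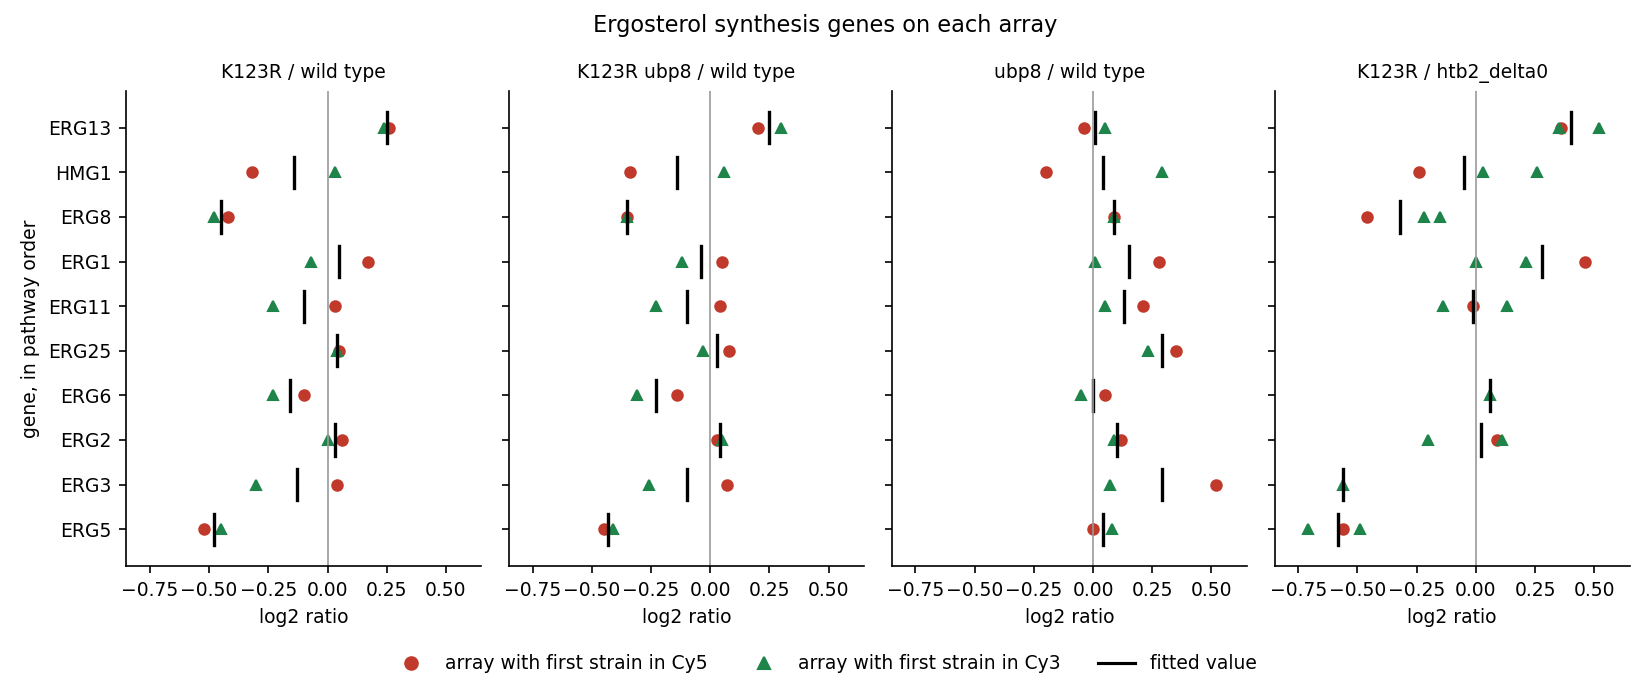
Log2 ratio of each of the 10 genes (rows, in the order of their steps) on every array, in 4 panels for the 4 comparisons. Circles are arrays with the first-named strain in Cy5, triangles arrays with it in Cy3, and bars the fitted value. ERG5 and ERG8 lie below 0 and ERG13 above 0 on every array with the K123R histone. HMG1, ERG1, ERG3 and ERG11 differ between the dyes in the comparisons with wild type.

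At the entry to the mevalonate route, ERG13 encodes HMG-CoA synthase. Its log2 ratios were 0.26 and 0.24 on the 2 arrays of K123R, 0.20 and 0.30 on those of the double mutant, and 0.35, 0.36 and 0.52 against htb2_delta0. In ubp8 they were −0.04 and 0.05. Both arrays of K123R and both of the double mutant, against wild type, lay above both ubp8 arrays. The share of all genes whose arrays separate in such a way is not given, here and for the genes below. The fitted values were 0.25 ± 0.05 in K123R (adjusted p = 0.0319), 0.25 ± 0.05 in the double mutant (adjusted p = 0.032) and 0.40 ± 0.09 against htb2_delta0 (n = 3 arrays, adjusted p = 0.0225). On the arrays against wild type, the normalised signal of ERG13 was 15507 and 15523 in K123R beside 12980 and 13127 in wild type on the same arrays. Against wild type this call was lost when any 1 of the 6 arrays was left out, with adjusted p of 0.0591 to 0.232 for K123R, while the log2 ratio stayed between 0.24 and 0.26. It was lost as well when arrays were centred on their median in place of loess, at 0.28 (adjusted p = 0.0711). The call against htb2_delta0 was lost without array 1 (0.44, adjusted p = 0.094) or array 3 (0.35, adjusted p = 0.0622).

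HMG1 encodes the major HMG-CoA reductase, the main control point of the pathway. Its log2 ratios were −0.32 and 0.03 in K123R, −0.20 and 0.29 in ubp8, and −0.34 and 0.06 in the double mutant. The 3 arrays against htb2_delta0 gave 0.03, −0.24 and 0.26. The arrays with the mutant in Cy5 were the low ones in all 4 comparisons, and the groups overlap. The fitted value in K123R, −0.14 ± 0.16, has a 95% interval from −0.56 to 0.27, the widest below 0 among the genes that did not pass there.

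ERG8 encodes phosphomevalonate kinase, which adds the second phosphate to mevalonate. Its log2 ratios were −0.42 and −0.48 in K123R and −0.35 on both arrays of the double mutant. In ubp8 they were 0.09 on both arrays, and against htb2_delta0 −0.15, −0.46 and −0.22. All 7 arrays with the K123R histone were below 0, and those against wild type were below both ubp8 arrays. The signal was 3329 and 3767 in K123R beside 4443 and 5261 in wild type, and 6337 and 5434 in ubp8 beside 5942 and 5103 in wild type. The fitted values were −0.45 ± 0.05 in K123R (adjusted p = 0.00569), −0.35 ± 0.05 in the double mutant (adjusted p = 0.0111) and −0.32 ± 0.08 against htb2_delta0 (adjusted p = 0.0339). The last call was lost without a dye term, at −0.28 (adjusted p = 0.0706), with median centring, at −0.30 (adjusted p = 0.059), and without any 1 of the 3 arrays (adjusted p from 0.125 to 0.179); without array 2 the value was −0.18.

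ERG8 lies on chromosome XIII with 2 genes between it and UBP8, by the order of genes in RefSeq assembly R64. Those neighbours, FMP42 and FSH2, were at 0.16 and −0.31 in ubp8 and did not pass there (adjusted p = 0.566 and 0.121). On the other side of ERG8, ESC1 and TRS130 were at 0.13 and 0.04 in ubp8. Around ERG5, SOK2 (−0.36, adjusted p = 0.00862) fell in K123R while BUD22 (0.49, adjusted p = 0.00543) and SPO20 (0.76, adjusted p = 0.0143) rose. Around ERG13, MSC1 (−0.82, adjusted p = 0.00546) fell and PGA3 (0.35, adjusted p = 0.0431) rose. Of the 10 genes 6 lie on chromosome XIII, which holds 7.8% of the 5740 genes on the arrays with a chromosome in that annotation.

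**Figure D2:**
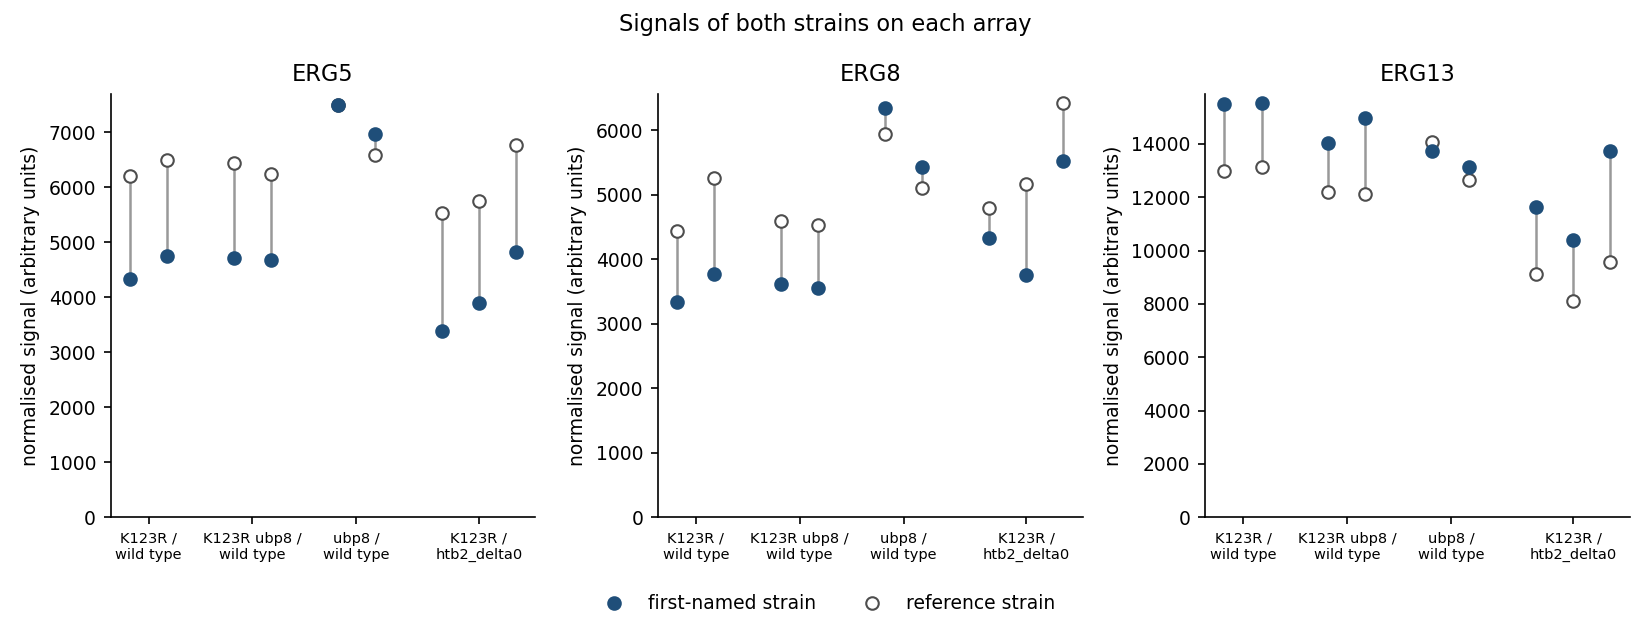
Normalised signal (arbitrary units, axis from 0) of ERG5, ERG8 and ERG13 on each array, with the first-named strain as a filled and the reference strain as an open point joined by a line. On the arrays of K123R and of the double mutant, filled points lie below open ones for ERG5 and ERG8 and above them for ERG13; on the ubp8 arrays the 2 points lie close together.

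ERG1 encodes squalene epoxidase, the first step that needs oxygen and the target of terbinafine. It was at 0.17 and −0.07 in K123R, 0.28 and 0.01 in ubp8, 0.05 and −0.12 in the double mutant, and 0.00, 0.46 and 0.21 against htb2_delta0. In the last comparison 1 array lay just below 0, at 0.00 after rounding, and the other 2 above it, and the fitted value of 0.28 ± 0.09 did not pass (adjusted p = 0.0588). ERG11 encodes lanosterol demethylase, the cytochrome P450 that azole antifungals inhibit. It was at 0.03 and −0.23 in K123R, 0.21 and 0.05 in ubp8, 0.04 and −0.23 in the double mutant, and −0.14, −0.01 and 0.13 against htb2_delta0. For both genes the array with the mutant in Cy5 was the higher of each pair against wild type. The 3 pairs of ERG1 overlap, while both ubp8 arrays of ERG11 lay above the arrays of the other mutants.

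ERG25 encodes the methyl sterol oxidase that starts the removal of the methyl groups left on the ring. It was at 0.05 and 0.04 in K123R, 0.08 and −0.03 in the double mutant and 0.35 and 0.23 in ubp8. Both ubp8 arrays thus lay above all 4 arrays of the other mutants. The fitted value in ubp8, 0.29 ± 0.06 or 1.22 times wild type, had the smallest p of the 10 genes in that comparison and did not pass (adjusted p = 0.07). All spots of ERG25 on the 3 arrays against htb2_delta0 were marked as outliers by the scanner software, so that it has no value there. With outlier spots kept they read −0.12, 0.17 and 0.07, with a fitted 0.07 (adjusted p = 0.569). Of the 54 spots of the 10 genes on those 3 arrays 22 were so marked, against 1 or none of 36 in each comparison with wild type, and 18.8% to 19% of all spots were so marked there.

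ERG6 encodes the sterol methyltransferase that gives fungal sterols their extra side-chain methyl group. It was at −0.10 and −0.23 in K123R and −0.14 and −0.31 in the double mutant, below both ubp8 arrays at 0.05 and −0.05. The fitted values were −0.16 ± 0.07 (adjusted p = 0.157) and −0.23 ± 0.07 (adjusted p = 0.0757), and neither passed. It had a value on 1 array, 0.06, against htb2_delta0. ERG2, the sterol isomerase, had the fitted value nearest 0 in K123R. It was at 0.06 and 0.00 in K123R, 0.12 and 0.09 in ubp8, 0.03 and 0.05 in the double mutant, and −0.20, 0.09 and 0.11 against htb2_delta0. Its interval in K123R ran from −0.09 to 0.15, the narrowest of the 7 genes that did not pass there.

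The last pair of genes are desaturases. ERG3, which introduces a double bond into the sterol ring, was at 0.04 and −0.30 in K123R, 0.07 and −0.26 in the double mutant, and 0.52 and 0.07 in ubp8. In ubp8 it was fitted at 0.29 ± 0.15 (adjusted p = 0.345), and the array with the mutant in Cy5 was again the higher of each pair. Against htb2_delta0 ERG3 fell by 0.56 (adjusted p = 0.0452), but this rests on 1 array, so that its p draws on the spread of other genes. With outlier spots kept, the 3 arrays read −0.56, 0.11 and −0.38, and the fitted −0.18 ± 0.09 did not pass (adjusted p = 0.167).

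ERG5 encodes the cytochrome P450 that desaturates the side chain, and it had the largest fitted change of the 10 genes in the 3 comparisons that involve K123R. Its log2 ratios were −0.52 and −0.45 in K123R, −0.45 and −0.41 in the double mutant, and −0.71, −0.56 and −0.49 against htb2_delta0. In ubp8 they were 0.00 and 0.08. Both arrays of K123R and both of the double mutant, against wild type, lay below both ubp8 arrays. The signal was 4334 and 4748 in K123R beside 6203 and 6488 in wild type, and 3388, 3897 and 4825 beside 5531, 5751 and 6770 in htb2_delta0. The fitted values were −0.48 ± 0.05 in K123R (adjusted p = 0.00571), −0.43 ± 0.05 in the double mutant (adjusted p = 0.00816) and −0.58 ± 0.09 against htb2_delta0 (adjusted p = 0.0109). Leaving out 1 array of the K123R pair left −0.45 or −0.52 with adjusted p of 0.0958 and 0.07, and the lone array is then assumed to vary like those of the other mutants. In the same way the call in the double mutant was lost without either of its arrays (adjusted p = 0.0911 and 0.096), and that against htb2_delta0 without array 1 (−0.52, adjusted p = 0.0626). ERG8 lost its calls without either array of its own pair too, with adjusted p of 0.0832 and 0.094 in K123R and 0.108 and 0.113 in the double mutant.

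The differences between mutants were tested in the fit of the 6 arrays against wild type, and run indirectly through it. ERG5 was lower in K123R than in ubp8 by a difference of −0.52 ± 0.07 (adjusted p = 0.0252), and ERG8 by −0.54 ± 0.07 (adjusted p = 0.0198), beside 8.23% of all genes that passed in this contrast. The double mutant differed from ubp8 in the same 2 genes, by −0.47 ± 0.07 for ERG5 (adjusted p = 0.0357) and −0.44 ± 0.07 for ERG8 (adjusted p = 0.0353), beside 6.61% of all genes. ERG13 was 0.24 ± 0.08 above ubp8 in both strains and did not pass (adjusted p = 0.12 for K123R and 0.123 for the double mutant). On the slides that held both mutants, K123R minus ubp8 was −0.45 for ERG5 and −0.57 for ERG8 on 1 slide, and the double mutant minus ubp8 was −0.49 and −0.44 on another. Those on the first slide compare arrays of opposite dye. None of these contrasts kept a call among the 10 genes when 1 of the 6 arrays was left out. With median centring in place of loess, 1 of the 10 genes passed between the double mutant and ubp8.

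Between the double mutant and K123R no gene of the 10 passed in limma, nor any gene on the arrays, a share of 0%; at an unadjusted p under 0.05 there were 43 genes and none of the 10. The 3 genes of the 10 with the smallest p were ERG8, ERG6 and ERG5. The 95% interval of the difference ran from −0.07 to 0.27 for ERG8, from −0.31 to 0.18 for ERG6 and from −0.13 to 0.24 for ERG5, and it ran from −0.19 to 0.2 for ERG13. The interaction, which is the double mutant's value minus those of both single mutants added, passed for 0% of all genes and none of the 10. At an unadjusted p under 0.05 it held 476 genes, among them ERG25 with −0.31 ± 0.10 (adjusted p = 0.568). Next came ERG1 with −0.23 and ERG2 with −0.09.

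The array number is the dye orientation, and arrays of the same number deviated from their pair means together, with correlations across genes of 0.86 to 0.89. HMG1 deviated on array 1 by −0.17, −0.25 and −0.20 in K123R, ubp8 and the double mutant, and ERG3 by 0.17, 0.23 and 0.17. ERG5 deviated by −0.03, −0.04 and −0.02, and ERG8 by 0.03 or less. With this number as a replicate block, which is the same as a dye term for each gene, the values stay as they are and the errors shrink to 0.03 for each gene. In K123R 1 gene then rose and 6 fell, in the double mutant 1 and 6, and in ubp8 6 rose, but the same fit passed 66.2%, 65.4% and 49.9% of all genes. The 6 in ubp8 were ERG1, ERG2, ERG3, ERG8, ERG11 and ERG25, led by ERG25 (0.29, adjusted p = 0.000906) and ERG3 (0.29, adjusted p = 0.000985). The 4 added to the fallen genes in K123R were HMG1, ERG3, ERG6 and ERG11 at −0.10 to −0.16, with adjusted p up to 0.0231. In that fit the interaction passed for ERG25 (−0.31, adjusted p = 0.0153), ERG3 (−0.26, adjusted p = 0.0253) and ERG1 (−0.23, adjusted p = 0.03), beside 21.4% of all genes. These 3 genes were above 0 in ubp8 and near or below 0 in the double mutant. With the block, 9 of the 10 genes passed between the double mutant and ubp8 and 8 between K123R and ubp8. Most of all genes passed in these 2 contrasts too, as counted at the end.

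**Figure D3:**
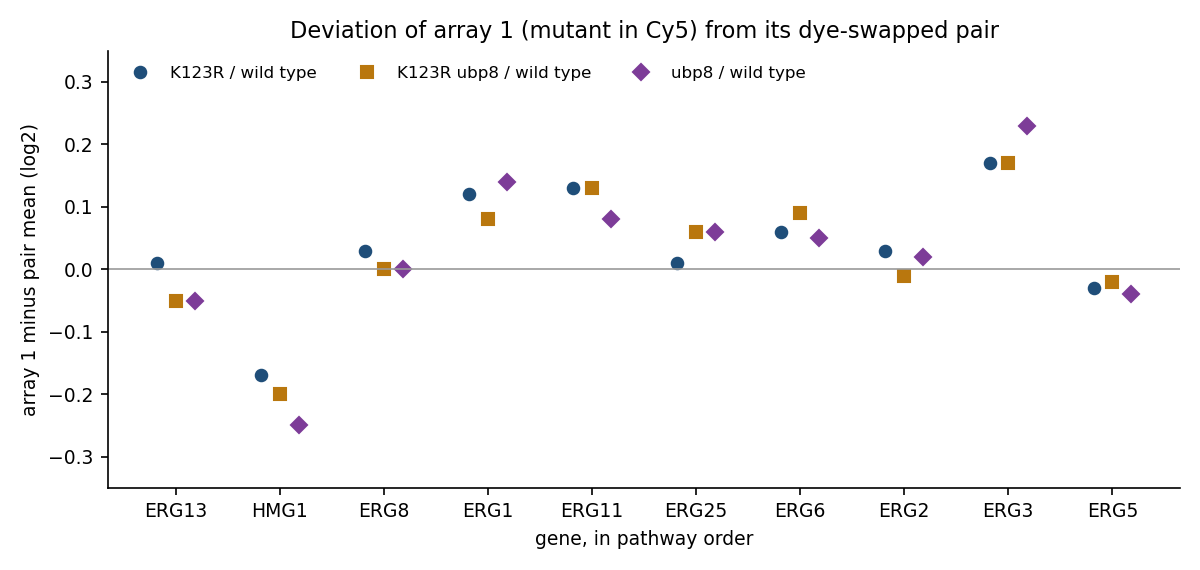
Deviation of array 1, with the mutant in Cy5, from the mean of its dye-swapped pair (log2) for the 10 genes in the 3 mutants compared with wild type. HMG1 deviates downwards and ERG3 upwards in all 3 mutants, while ERG5 and ERG8 stay within 0.04 of 0.

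The 2 arrays of a mutant lay on different slides, and each of the 3 slides held arrays of 2 mutants. With the slide as a block, a setting chosen after seeing the data, ERG5 was at −0.46 in K123R (adjusted p = 0.0012) and −0.43 in the double mutant, ERG8 at −0.45 and −0.36, and ERG13 at 0.28 and 0.23, and all of these passed. ERG6 passed as well, at −0.21 in K123R and −0.23 in the double mutant, as did ERG3, at −0.26 in K123R and 0.41 in ubp8, and ERG25 at 0.31 in ubp8 (adjusted p = 0.0175). This fit has 1 residual degree of freedom, and it passed more of all genes than the main fit in each mutant, as counted at the end. The slides are not balanced for dye. On the slide shared by K123R and ubp8 the arrays have opposite dyes, and ERG3 differed by −0.82 there. Without the slide block, with dyes balanced in each mean, ERG3 was at −0.13 in K123R and 0.29 in ubp8, and neither passed.

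Over the 10 genes the median log2 ratio was −0.12 in K123R, −0.10 in the double mutant and 0.10 in ubp8. Against htb2_delta0 it was −0.01 over the 9 genes tested. Medians over all genes tested were within 0.015 of 0. By array the median of the 10 genes was 0.03 and −0.15 in K123R, 0.03 and −0.18 in the double mutant, and 0.11 and 0.07 in ubp8. For the 3 arrays against htb2_delta0 it was −0.14, −0.01 and 0.13, over the 9, 7 and 7 genes with a value. The sign of the median thus changed between the arrays of each comparison that involves K123R, though against htb2_delta0 the genes differ between arrays.

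Beside the 10 genes, 16 others of the route and its helpers were described as a group. Of the 6 in the mevalonate and farnesyl section (ERG10, HMG2, ERG12, MVD1, IDI1 and ERG20), none passed in any comparison with wild type. IDI1, which isomerises isopentenyl pyrophosphate, fell against htb2_delta0 with −0.50, −0.19 and −0.91 on the 3 arrays (−0.45 ± 0.11, adjusted p = 0.0302). HMG2, the second HMG-CoA reductase, was at −0.14, −0.06 and −0.11 in K123R, ubp8 and the double mutant, and at 0.04 against htb2_delta0.

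In the sterol branch, ERG26 and ERG27 encode the dehydrogenase and the keto reductase that act after ERG25 in removing the ring methyl groups, and both fell. ERG26 was at −0.41 and −0.43 in K123R, −0.53 and −0.41 in the double mutant, and −0.63, −0.40 and −1.13 against htb2_delta0. In ubp8 it was at 0.29 and 0.35, which did not pass (0.32 ± 0.05, adjusted p = 0.0505). ERG27 was at −0.45 and −0.43 in K123R, −0.47 on both arrays of the double mutant, and −0.43, −0.28 and −0.37 against htb2_delta0, with 0.07 and 0.03 in ubp8. Fitted values were −0.42 ± 0.05 for ERG26 and −0.44 ± 0.05 for ERG27 in K123R (adjusted p = 0.00862 and 0.00557). K123R and ubp8 differed by −0.74 ± 0.08 for ERG26 (adjusted p = 0.0139) and by −0.49 ± 0.07 for ERG27 (adjusted p = 0.023).

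ERG4, the reductase of the last step, fell in the double mutant (−0.31 and −0.46, adjusted p = 0.0388), while in K123R it was at −0.24 and −0.43 (adjusted p = 0.0502). Against htb2_delta0 ERG4 had values on 2 arrays of opposite dye, −0.77 and −0.06 (adjusted p = 0.0389). With the dye term no residual is left for this gene, so that its p draws on the spread of other genes. ERG28, thought to be a scaffold for the demethylation enzymes, and the electron carrier CYB5 fell against htb2_delta0, with −0.70 ± 0.13 and −0.48 ± 0.09. Whether these values differ from those against wild type was not tested. ERG28 was at −0.01 in K123R against wild type and at 0.27 in ubp8 (adjusted p = 0.0832), and CYB5 at −0.13 and 0.25. ERG29 fell against htb2_delta0 as well (−0.37 ± 0.08).

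With the array number as a replicate block, 10 of these 16 genes fell in K123R and 11 in the double mutant, and 5 rose and 1 fell in ubp8. In ubp8 they included ERG26 (0.32, adjusted p = 0.000813), CYB5 (0.25, adjusted p = 0.0016) and ERG28 (0.27, adjusted p = 0.00276), and in K123R ERG4 (−0.34, adjusted p = 0.000321). That fit passed 66.2% of all genes in K123R, 65.4% in the double mutant and 49.9% in ubp8, in either direction.

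Over the 26 genes, without that block, 1 rose and 4 fell in K123R, 1 and 5 in the double mutant, none in ubp8, and 1 and 10 of 25 against htb2_delta0. Those 10 include ERG3 and ERG4, whose p there draws on the spread of other genes. Of all genes 11% rose and 10.1% fell in K123R, 9.88% and 10% in the double mutant, 1.84% and 0.961% in ubp8, and 14.8% and 16.3% against htb2_delta0. ERG5, ERG8, ERG26 and ERG27 fell and ERG13 rose in all 3 comparisons that involve K123R. K123R enters 2 of these comparisons, and wild type is shared by the other pair, so the counts are not independent. The 4 genes that fell act at separate places: ERG8 before squalene, ERG26 and ERG27 in demethylation and ERG5 at the side chain.

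**Figure D4:**
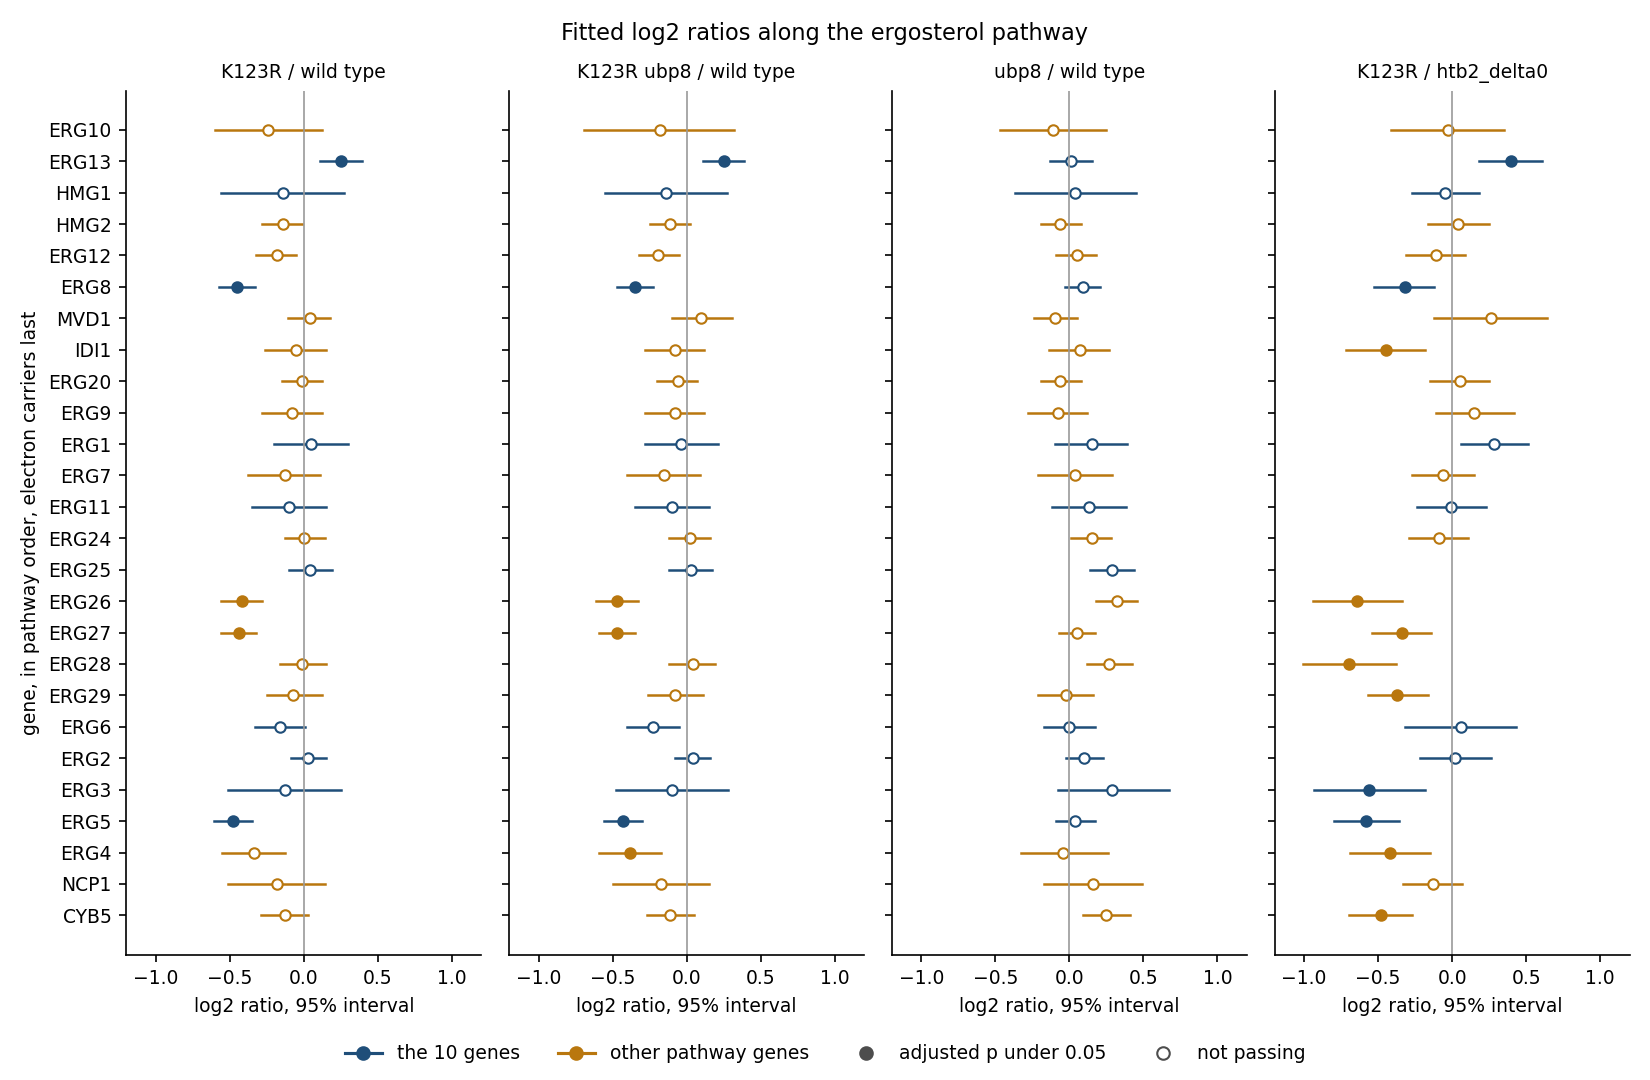
Fitted log2 ratio with 95% interval for 26 genes in pathway order (rows), in 4 panels for the 4 comparisons. Filled points passed at an adjusted p under 0.05 in limma and open points did not; ERG25 has no value against htb2_delta0. ERG5, ERG8, ERG26 and ERG27 are filled and below 0 in the 3 panels with K123R, and no point is filled in the ubp8 panel.

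The regulators were read on the same arrays. UPC2, the main sterol-responsive activator, was at −0.18 in K123R, −0.14 in the double mutant, 0.00 in ubp8 and −0.17 against htb2_delta0. Its paralog ECM22 was at 0.18, 0.15, 0.12 and 0.18 in the same order, and neither passed in any of the 4. With the array number as a replicate block UPC2 passed in K123R (adjusted p = 0.00126) and in the double mutant (adjusted p = 0.00361), and ECM22 in all 3 mutants (adjusted p from 0.00206 to 0.0165). HAP1, the heme-responsive activator, fell in K123R (−0.50 and −0.37, fitted −0.43 ± 0.07, adjusted p = 0.0129) and in the double mutant (−0.38, adjusted p = 0.0184). Against htb2_delta0 HAP1 was at −0.31, −0.23 and 0.18 (fitted −0.15, adjusted p = 0.381). NSG1, whose product stabilises HMG-CoA reductase, fell by 0.40 in K123R, by 0.41 in the double mutant and by 0.57 against htb2_delta0. Its relative NSG2 rose in K123R (0.21, adjusted p = 0.0374) and fell in ubp8 (−0.32, adjusted p = 0.0434). SUT1 and SUT2, which promote sterol uptake, fell against htb2_delta0 (−0.47 and −0.49).

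Among 20 measured genes of sterol esters, uptake and transport, 5 fell in K123R and 5 in the double mutant, and none rose in either, beside 10.1% and 10% of all genes that fell and 11% and 9.88% that rose. ATF2, the sterol acetyltransferase, fell by 0.60 in K123R and by 0.57 in the double mutant. OSH2 and OSH3, oxysterol-binding proteins, fell by 0.32 and 0.24 in K123R. ARE1, a sterol acyltransferase, rose against htb2_delta0 (0.35 ± 0.09, adjusted p = 0.0305), where OSH2 and the steryl ester hydrolase YEH1 fell.

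Of 14 genes induced by low oxygen, 1 fell in K123R and 2 in the double mutant, again beside 10.1% and 10% of all genes. COX5B, the hypoxic form of a cytochrome oxidase subunit, fell by 0.67 in K123R, by 0.60 in the double mutant and by 0.98 against htb2_delta0. OLE1, the fatty acid desaturase, fell by 0.37 in the double mutant, and CYC7 fell by 0.88 against htb2_delta0. In ubp8 the mitochondrial carrier AAC3 rose (0.57 ± 0.06, adjusted p = 0.0295), the only one of the 14 to pass there, beside 1.84% of all genes that rose. Of 7 genes of heme synthesis, whose product Erg5 and Erg11 carry, 3 fell and 1 rose in K123R, beside 10.1% and 11% of all genes. HEM12, HEM15 and HEM4 fell by 0.49, 0.55 and 0.21, and HEM14 rose by 0.30.

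Of 15 genes of sphingolipid and fatty acid synthesis 7 fell in K123R and 7 in the double mutant, with none rising and none passing in ubp8. Of all genes 10.1% and 10% fell in those strains, 11% and 9.88% rose, and in ubp8 0.961% fell and 1.84% rose. The ceramide synthase gene LAC1 fell by 0.43, IPT1 by 0.51 and the hydroxylase gene SCS7 by 0.48 in K123R, and the fatty acid synthase gene FAS1 by 0.55 in the double mutant. Against htb2_delta0 4 of 14 fell, beside 16.3% of all genes, IPT1 by 0.81. Of 10 genes for other isoprenoid products, such as dolichol, ubiquinone and prenylated proteins and tRNA, 1 fell in K123R and 1 in the double mutant. Of all genes 10.1% and 10% fell there. Against htb2_delta0 1 of 9 tested fell, beside 16.3% of all genes. The gene that fell against wild type was RAM2, a subunit of protein farnesyltransferase. Against htb2_delta0 it was STE14, which methylates proteins that already carry the farnesyl group.

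The mean of the 10 genes over the 9 arrays ran from −0.15 to 0.14, taken over the genes with a value on each array. Among 5279 other genes with values on all 9 arrays, the 5 whose log2 ratios followed this mean most closely by Pearson's r were CFD1 (0.971), UME6 (0.97), CIN1 (0.964), YEL068C (0.964) and AFB1 (0.947). The arrays share strains, dyes and slides, and r is given here as a description.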

How the data were processed

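Labelled RNA was hybridised to 9 Agilent 2-colour arrays. Per the labels' protocols, total RNA was amplified linearly and labelled with Cy3 or Cy5. Per the file headers, the intensity of each spot came from Agilent Feature Extraction, version 7.5.1 (with the prefix A in the headers) for the 6 arrays with wild type and 8.5.1.1 for the other 3. The deposited log10 ratios match log10 ratios of the dye-normalised signals in the scanner files and served as an alternative. The title of 1 K123R array names htb1 as deleted, while its source name gives htb2.

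From the mean signals and median backgrounds, log2 ratios were computed in R 4.3.3 with limma 3.58.1: normexp with an offset of 50, loess within each array, outlier-marked spots and controls left out, saturated spots kept, spots of a probe averaged. A gene was tested if either colour of its probe exceeded background clearly on 3 of 6 or 2 of 3 arrays. The 6 arrays shared a fit that had a mean for each mutant (3 residual degrees of freedom). The 3 arrays against htb2_delta0 had a gene-specific dye term (1 residual degree of freedom for genes with values on all 3). Genes with values on 2 arrays of opposite dye, ERG4 among them, had no residual left. The 410 genes without both dyes, ERG3 and ERG6 among them, were fitted by the mean alone. P-values were adjusted by Benjamini-Hochberg over all genes, with a threshold of 0.05.

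By the series design, arrays are biological replicates. The sources used here do not say whether arrays shared a wild-type RNA sample. Arrays of the same number, which is the dye orientation, deviate together (r of 0.86 to 0.89 across genes). A gene-specific dye effect and a pairing of replicates by number cannot be told apart here. With such shared deviations the residual degrees of freedom are not independent, and p-values without the block are approximate. The number of arrays limits the precision. The comparisons with wild type and with htb2_delta0 were normalised and fitted separately. Their arrays are of different Agilent platforms, with 10807 and 10789 spots, so platform and reference strain cannot be told apart between them.

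The 10 genes and the other gene lists were chosen with earlier results of these data known. The lists are described by counts and medians only. Of the other lists, the text names genes past the threshold whose arrays agree in sign, up to 4 per comparison by smallest adjusted p, and UPC2, ECM22, HMG2, HTB2, UBP8, HIS3 and LEU2 always. The values of other pathway genes and of the neighbours in the genome were chosen for mention after they were seen. Of the listed genes 1 was not found on the arrays by its name. Of 6256 systematic names 5756 matched a locus tag of RefSeq assembly R64, which gave gene order and chromosomes. The pipeline was tested on simulated data. Sequences of probes, promoters and proteins were not used here, and a planned count of sterol response elements in promoters was not run.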

Additional observations from a re-analysis of the deposited data

Results flagged for a closer look

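The effect of the mutation against wild type differed between mutants for ERG5 and ERG8, by a test of the difference itself in limma. For ERG5, K123R minus ubp8 was −0.52 and the double mutant minus ubp8 −0.47, with both arrays of each K123R-bearing strain below both ubp8 arrays. For ERG8 the differences were −0.54 and −0.44, again with no overlap between arrays. The share of all genes whose arrays separate in this way is not given here. Each call was lost when any 1 of the 6 arrays was left out.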

How the results depend on the processing

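In the 3 comparisons that involve K123R, ERG5, ERG8 and ERG13 kept their sign under every alternative run, and no value changed sign past the threshold. The calls of ERG5 and ERG8 against wild type were lost only when 1 array of their own pair was left out, those of ERG13 also when another array was, with median centring and with only the arrays of that comparison. With the replicate block, the members called numbered 7 in K123R, 6 in ubp8 and 7 in the double mutant, of 4137, 3119 and 4083 genes in all. The contrasts then held 14 genes for the double mutant against K123R, 9 members and 3443 genes for the double mutant against ubp8, 8 and 3535 for K123R against ubp8, and 3 and 1337 for the interaction. With the slide as a block, chosen after seeing the data, 5 members passed in K123R and 2 in ubp8, of 2455 and 934 genes. The same block gave 2059 genes in the double mutant, 3 for the double mutant against K123R, 1077 for the double mutant against ubp8, 5 members and 1703 genes for K123R against ubp8, and 22 for the interaction. In ubp8, 91 genes passed with Agilent's processed signals and 85 with the deposited values, beside 175 in the fit reported. With median centring the median of the members in ubp8 was 0.0545, the contrasts of the double mutant and of K123R with ubp8 held 226 and 330 genes, and 1 member passed in the first. Without a dye term 2 members passed against htb2_delta0.

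Leaving out 1 array left 0 to 2 members and 34 to 884 genes in K123R, 0 to 2 and 3 to 823 in the double mutant, 0 to 8 genes in ubp8, and 0 to 3 members and 504 to 2173 genes against htb2_delta0. The double mutant against ubp8 then held 0 members and 3 to 49 genes, K123R against ubp8 0 and 4 to 50, and the interaction and the double mutant against K123R 0 to 1 genes each. The median of the members ran from −0.148 to 0.0342 in K123R and from 0.0731 to 0.107 in ubp8. A left-out array leaves 1 for that mutant, and the cause of the other changes was not tested.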
